A study of Homo sapiens with 24 samples.

Results

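HepG2, an established human liver cancer line, was transfected with siRNA against IGF2BP2 or against IGF2BP3, and the 2 knockdowns are compared here directly with each other. The comparison holds 12 of the 24 libraries of the series, 6 labelled siIGF2BP2 and 6 labelled siIGF2BP3, chosen by those labels. Each knockdown has 2 libraries at 0, 3 and 6 h of actinomycin D, a drug that stops transcription. The other 12 libraries, 6 siControl (a non-targeting siRNA) and 6 siIGF2BP1, enter only where a level is placed beside them. All cells were otherwise unmodified HepG2, transfected by lipofection, and no clone or stable line was made. The methods name pre-designed siRNA for each target, with no second siRNA described here and no siRNA sequence, so an effect of losing the protein and another effect of its siRNA cannot be told apart. Each transfected plate was divided over the time points, so libraries of one knockdown may share a transfection. Same-numbered siIGF2BP3 libraries deviated together across time points (r of 0.184 to 0.245 across genes), while same-numbered siIGF2BP2 libraries did so little (-0.033 to 0.029). The fit over 12 libraries treats the 6 of a knockdown as independent, so its p-values may be too small and the sums over time points, given below, stand beside it. All p-values measure the spread between these libraries, which may be partly technical.

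The 3 IGF2BP genes encode insulin-like growth factor 2 mRNA-binding proteins, which share a set of RNA recognition motifs and KH domains. They bind mRNA in the cytoplasm, mostly in 3′ untranslated regions, and are known to influence the stability, localization and translation of their clients, including m6A-modified and internally m7G-modified mRNA. IGF2BP1 and IGF2BP3 are mainly fetal proteins that many tumours express again, whereas IGF2BP2 is also found in many adult tissues. IGF2BP2 and IGF2BP3 are close paralogs, and the question put to these libraries is where the transcriptome differs according to which of them was lowered, without reference to the control siRNA.

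Depth was 40250738 to 66696110 gene reads in siIGF2BP2 and 31843504 to 64797969 in siIGF2BP3. Replicates correlated with r of 0.9968 to 0.9985 across genes on the log2 scale. Gene reads per read of the ERCC spike-in averaged 646 ± 91.3 in siIGF2BP2 and 666 ± 77.2 in siIGF2BP3 (SD, n = 6 each), a spread that includes the time course. At 0, 3 and 6 h they were 758 ± 9.09, 605 ± 7.79 and 576 ± 57.2 in siIGF2BP2 (SD, n = 2 each). In siIGF2BP3 they were 757 ± 24.9, 649 ± 24.9 and 593 ± 25.8 (SD, n = 2 each). All 8 hepatocyte markers were expressed, with HNF4A, the master regulator of the hepatocyte, between 264 and 326 CPM (gene reads on a common scale after TMM normalization) over the 12 libraries. Of the markers of other cells, 6 of 7 fibroblast, 3 of 5 endothelial and 4 of 6 blood and immune genes stayed below 1 CPM in all 12 libraries. LUM and KDR, defining markers of fibroblasts and endothelium, were at 0 in all of them. Among the markers above that level were PDGFRB, a growth factor receptor, at 6.33 to 14.1 CPM and LYZ, which encodes lysozyme, at 692 to 1783 CPM. The summed level of the fibroblast markers was 9.05 to 14.3 CPM in siIGF2BP2 and 6.37 to 9.98 in siIGF2BP3, that of the endothelial markers 1.3 to 2.09 and 1.32 to 2.23, and that of the blood and immune markers 694 to 1292 and 951 to 1784. The part of these markers' cells in the results was not tested.

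IGF2BP2 was lower in the siIGF2BP2 libraries and IGF2BP3 in the siIGF2BP3 libraries, as the labels say. Against siControl, IGF2BP2 was at -2.12 (log2) in siIGF2BP2 and 0.06 in siIGF2BP3, and IGF2BP3 at -0.04 and -1.77. IGF2BP2 (ENSG00000073792.15, chr3:185643130-185825042 in hg38, minus strand) was at 45.5 and 44.8 CPM at 0 h, 43.5 and 43.9 at 3 h and 51.1 and 49.6 at 6 h in the siIGF2BP2 libraries. In the siIGF2BP3 libraries it was at 182 and 178 CPM, 229 and 215, and 231 and 231 at the same times. The highest siIGF2BP2 library lay far below the lowest siIGF2BP3 library. Averaged over time, IGF2BP2 in siIGF2BP2 was 22.1% of its level in siIGF2BP3, a log2 difference of -2.18 (SE 0.0356, edgeR adjusted p 1.31e-27).

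IGF2BP3 (ENSG00000136231.13, chr7:23310209-23470491, minus strand) was at 97.8 and 99.8 CPM at 0 h, 115 and 120 at 3 h and 133 and 136 at 6 h in siIGF2BP2. In siIGF2BP3 it was at 36.1 and 35.2, 34 and 33.1, and 33.7 and 34.8 CPM. It was thus higher in every siIGF2BP2 library than in any siIGF2BP3 library, by 3.34-fold (log2 1.74, SE 0.0498, edgeR adjusted p 2.19e-21). An exact permutation test over the 216 relabelings of libraries within time points gave a two-sided p of 0.00926 for each of the 2 genes, the smallest such relabeling allows. It treats libraries of different times as independent. If plates were shared across times, fewer relabelings would be possible and the smallest p would be larger. Both genes are siRNA targets, so the test only checks the labels. The third paralog, IGF2BP1, was at 628 to 776 CPM in siIGF2BP2 and 681 to 812 CPM in siIGF2BP3. Its difference of -0.08 (SE 0.0174) passed the threshold in the fit over 12 libraries (edgeR adjusted p 0.00064) and missed it with the counts of each knockdown summed over time points (edgeR adjusted p 0.447).

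**Figure D1:**
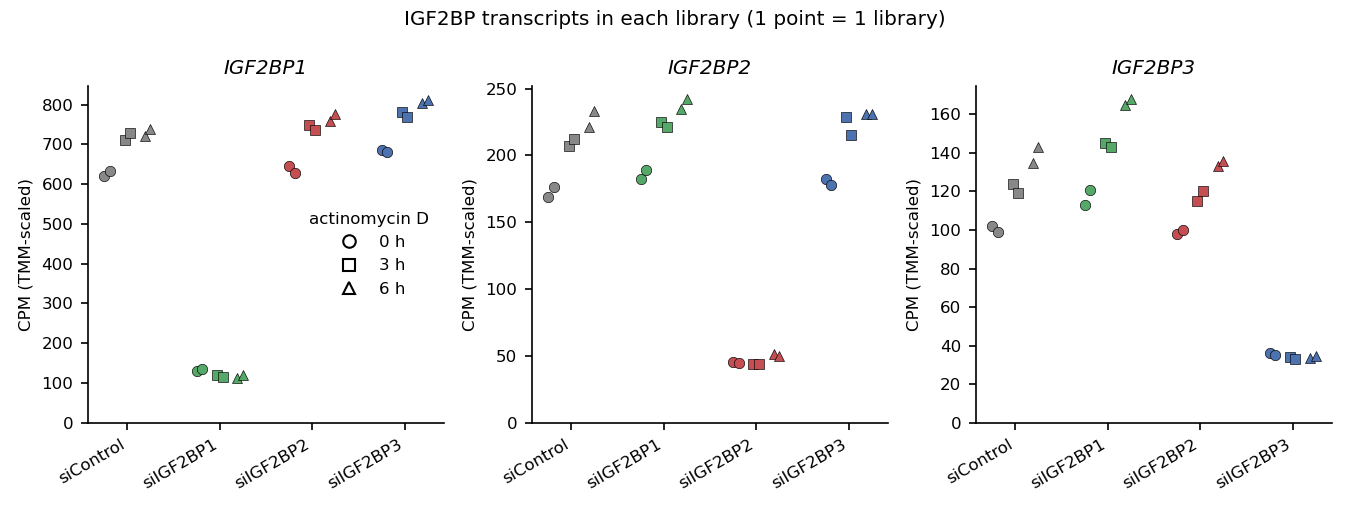
TMM-scaled CPM of IGF2BP1, IGF2BP2 and IGF2BP3 in each of the 24 libraries, by siRNA on the x axis, with circles, squares and triangles for 0, 3 and 6 h of actinomycin D. IGF2BP2 is at 43.5 to 51.1 CPM in siIGF2BP2 and IGF2BP3 at 33.1 to 36.1 CPM in siIGF2BP3, each below all other libraries.

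Across the transcriptome, differences between the knockdowns were numerous and mostly small. With time point as a block, 3762 of 12893 genes tested (29.2%) differed at an edgeR adjusted p under 0.05, 1872 higher (14.5%) and 1890 lower (14.7%) in siIGF2BP2. The median absolute log2 difference of the called genes was 0.17. A log2 difference of at least 0.5 was seen in 156 genes higher and 139 lower in siIGF2BP2, and of at least 1 in 12 higher and 7 lower, the targets included. Many of those of at least 0.5 were weakly expressed, with a median of 3.56 CPM (higher) and 9.47 CPM (lower) against 19.8 CPM over all genes tested. Of the called genes, 3591 were protein-coding and 101 were long non-coding RNAs. The 3762 called genes took the same direction at all 3 time points in 3680 cases, and in 2482 the libraries of the knockdowns did not overlap within any time point. Without overlap within any time point were 10.4% (higher) and 10.1% (lower) of all genes tested.

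Since libraries may share a transfected plate, the reads of each knockdown and replicate number were also summed over time, giving 2 sums against 2. Raw reads were added without equalizing depth, so the time points weigh unequally in the sums. In siIGF2BP2, replicate 1 had 63686991 gene reads at 0 h and 40250738 at 6 h, and replicate 2 had 49991258 and 54956506. The part of this weighting in calls lost in the sums was not tested. That fit called 1776 genes (13.8%), 867 higher (6.72%) and 909 lower (7.05%), and 1752 of them were among the 3762. Scaling to the ERCC spike-in instead of TMM called 2496 genes (19.4%) and moved the split to 748 higher (5.8%) and 1748 lower (13.6%), with the median of all genes at -0.039. Of the 30 genes with the largest differences (15 in each direction, with a mean of at least 5 CPM and no overlap at any time), 29 kept their direction and their call in all 22 alternative fits, and CCN1 was missing only from the fit with a stricter count filter, which it did not pass. The 30 were picked from these same libraries, which the alternatives fit again, so this shows dependence on settings only and is no independent check.

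**Figure D2:**
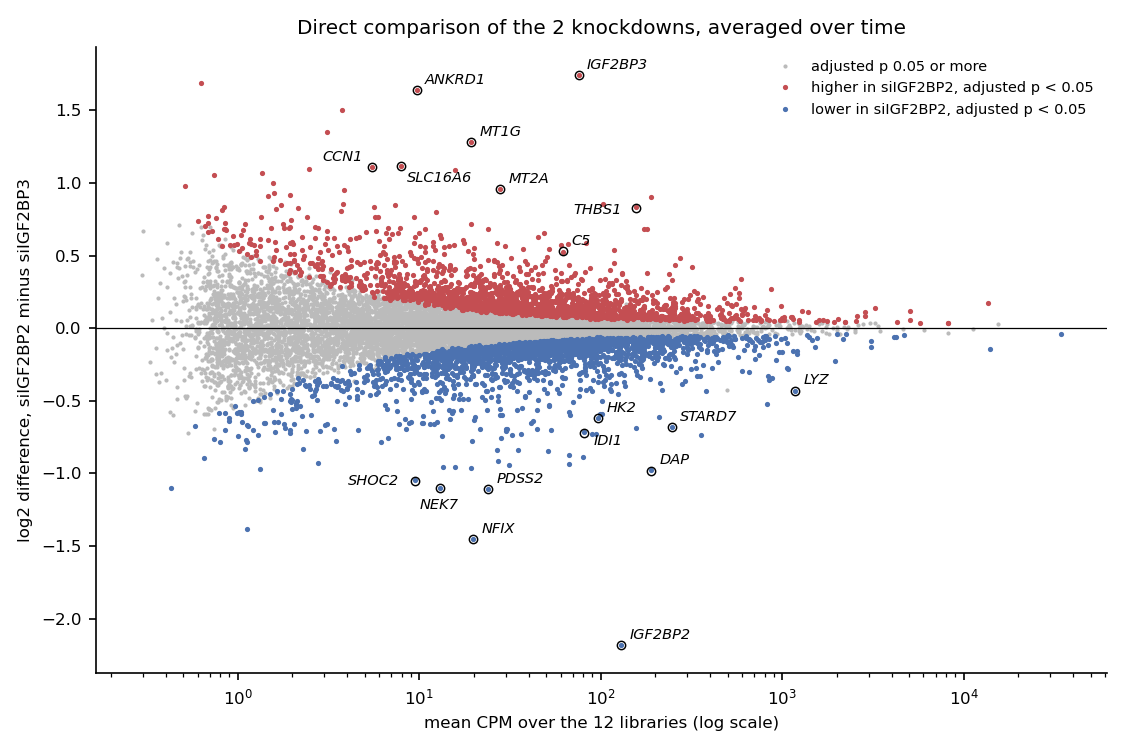
Log2 difference, siIGF2BP2 minus siIGF2BP3, against mean CPM over the 12 libraries (log scale), 1 point per gene, coloured where the edgeR adjusted p is under 0.05. IGF2BP2 at -2.18 and IGF2BP3 at 1.74 are marked, as are NFIX at -1.45 and ANKRD1 at 1.64, and called genes at the left edge are weakly expressed.

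The genes lowest in siIGF2BP2 relative to siIGF2BP3 had varied roles. NFIX, a nuclear factor I transcription factor (ENSG00000008441.16, chr19:12995475-13098796), was at 16.8 and 15.5 CPM at 0 h in siIGF2BP2 against 41.1 and 41.6 in siIGF2BP3. At 3 h it was at 9.71 and 8.79 against 26.9 and 27.1, and at 6 h at 6.38 and 6.97 against 17.7 and 19.3. By the rule that picked these genes, no siIGF2BP2 library reached a siIGF2BP3 library of the same time. The log2 difference was -1.45 (SE 0.0496, edgeR adjusted p 1.52e-19).

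PDSS2, which helps make the side chain of coenzyme Q, was at 13.6 to 17.2 CPM (median 15.1) in siIGF2BP2 and 27.8 to 37.7 CPM (median 32.6) in siIGF2BP3, a log2 difference of -1.11 (SE 0.0448, edgeR adjusted p 8.28e-18). NEK7, a mitotic kinase that also takes part in inflammasome assembly, was at 7.54 to 9.15 CPM (median 8.15) against 15.1 to 19.2 (median 18.2), a difference of -1.1 (SE 0.0556, edgeR adjusted p 1.2e-15). In both genes the ranges of the knockdowns stayed apart even with the time points pooled. DAP, a regulator of autophagy, differed by -0.98 on the log2 scale (SE 0.0256). SHOC2, a scaffold of the RAS to RAF pathway, differed by -1.05 (SE 0.0721), and AKT1S1, the mTORC1 inhibitor PRAS40, by -0.84 (SE 0.0409). Others of the 15 were C5orf24, RRS1 (ribosome biogenesis), C2orf69, MPHOSPH6 (a partner of the nuclear exosome), KIAA1191, SUCO and CCDC43, at log2 differences of -0.96 to -0.87.

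For these 15 genes the control libraries lay nearer to siIGF2BP3. In all 15 genes, IGF2BP2 itself included, siIGF2BP2 was farther from siControl than siIGF2BP3 was, with a median absolute log2 difference from siControl of 1.01 in siIGF2BP2 and 0.09 in siIGF2BP3. NFIX was -1.42 from siControl in siIGF2BP2, 0.02 in siIGF2BP3 and 0.24 in siIGF2BP1. SHOC2 was at -1.02, 0.02 and 0.09 in the same order. The siIGF2BP1 libraries were nearer to siIGF2BP3 than to siIGF2BP2 in all 15. They were nearer to siIGF2BP2 in 612 of the 1890 genes called lower and in 5870 of all 12893 tested. Among all 1890 genes lower in siIGF2BP2, siIGF2BP2 was the one farther from siControl in 56.5%, against 50.5% of all genes tested, and siControl lay between the knockdowns in 49.4%. Among those lower by at least 0.5, siIGF2BP2 was the farther one in 82.7%. These differences share the siControl libraries, and the genes were picked for being lower in siIGF2BP2 than in siIGF2BP3. The shares over all genes are thus no like baseline, and the values are given as levels only.

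The genes highest in siIGF2BP2 relative to siIGF2BP3 included ANKRD1 and CCN1, known targets of the Hippo pathway, and 3 metallothioneins. In the Hippo pathway the coactivators YAP and TAZ, when not held back by the kinases LATS1 and LATS2, bind TEAD transcription factors and turn on genes such as ANKRD1, CCN1 and CCN2. ANKRD1, a muscle ankyrin repeat protein widely used as a YAP readout (ENSG00000148677.6, chr10:90912096-90921087, minus strand), was at 28.1 and 30.1 CPM at 0 h in siIGF2BP2 and 9.68 and 11.3 in siIGF2BP3. It was at 9.17 and 8.8 against 3.09 and 3.37 at 3 h, and at 5.38 and 5.34 against 0.868 and 0.832 at 6 h. By the rule that picked the largest differences, the groups did not overlap at any time. The log2 difference was 1.64 (SE 0.101, edgeR adjusted p 1.36e-13).

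CCN1, a secreted matricellular protein, was at 17.7 and 17.7 CPM against 8.63 and 8.47 at 0 h, and was below 5 CPM in all libraries at 3 and 6 h. Its log2 difference was 1.11 (SE 0.129, edgeR adjusted p 7.56e-08). CCN2, the connective tissue growth factor, was named after its values were seen and differed less, by 0.44 (SE 0.0437, edgeR adjusted p 4.31e-09), with 114 and 118 CPM against 91.4 and 91.5 at 0 h. Of the 28 tested genes of a list of TGF-beta, BMP and Hippo response genes, 15 were higher and 1 lower in siIGF2BP2 (14.5% of all genes were called higher and 14.7% lower), and the list median was 0.12 against 0.00 over all genes. The transcripts of the pathway's own components differed little: YAP1 was at -0.02 and TEAD1 at 0.09, neither called, while WWTR1, which encodes TAZ, was at 0.12 and LATS2 at 0.14, both called. Under ERCC scaling 9 members of the list were higher and 1 lower, and in the sums over time points 8 and 1. Against siControl the list median was 0.17 in siIGF2BP2, -0.03 in siIGF2BP3 and -0.01 in siIGF2BP1. CCN1 was at 0.53, -0.60 and -0.12 in the same order, and CCN2 at 0.19, -0.26 and -0.55.

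The promoters of ANKRD1 and CCN2, both higher in siIGF2BP2, are shown because they were found, while none was found for CCN1. Both carry the word GGAATG, the core of the TEAD motif. The 250 bases before the RefSeq start (GRCh38.p14) are given 5′ to 3′ on the gene's strand, chr10:90921088-90921337 for ANKRD1 and chr6:131951373-131951622 for CCN2, with each match of the word on either strand in capitals.
ANKRD1: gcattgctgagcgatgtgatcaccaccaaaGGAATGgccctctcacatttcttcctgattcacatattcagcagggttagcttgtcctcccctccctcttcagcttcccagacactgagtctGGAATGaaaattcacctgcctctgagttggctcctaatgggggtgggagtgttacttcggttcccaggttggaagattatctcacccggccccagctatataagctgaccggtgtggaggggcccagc
CCN2: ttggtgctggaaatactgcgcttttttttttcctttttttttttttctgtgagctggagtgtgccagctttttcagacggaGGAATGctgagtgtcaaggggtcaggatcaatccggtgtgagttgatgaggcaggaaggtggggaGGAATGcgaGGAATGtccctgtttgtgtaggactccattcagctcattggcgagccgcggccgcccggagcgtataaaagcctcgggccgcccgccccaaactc
ANKRD1 holds 2 matches and CCN2 holds 3. Of 35116 promoter windows of this length, 11.9% hold the word at least once. A match is a run of letters, and binding was not measured.

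The metallothioneins are small cysteine-rich proteins that bind zinc and copper and are turned on by metal through the factor MTF1. The 5 members that could be tested stood higher in siIGF2BP2. This list was added after the values were seen. MT1G, MT1E and MT2A were already among the 15 highest genes, so the count of the list is no independent support. Of its 12 genes, 5 passed the count filter, and all 5 were called higher in siIGF2BP2, where 14.5% of all genes were. The other 7 were not expressed enough to test. Since the family members are near-identical and lie side by side on chromosome 16, the division of reads among them is uncertain.

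MT2A (ENSG00000125148.6, chr16:56608584-56609497) was at 28.1 and 29.8 CPM at 0 h, 36.8 and 36.4 at 3 h and 45.7 and 44 at 6 h in siIGF2BP2. In siIGF2BP3 it was at 15.1 and 15.1, 18.9 and 18.3, and 22.3 and 23.5 CPM. The lowest siIGF2BP2 library was above the highest siIGF2BP3 library, and the log2 difference was 0.96 (SE 0.0388, edgeR adjusted p 7.92e-18). MT1G was at 21.2 to 37.3 CPM (median 26.7) against 8.53 to 13.9 (median 11.8), a difference of 1.28 (SE 0.0558, edgeR adjusted p 5.32e-17). MT1E was at 18.6 to 24.4 CPM (median 21.7) against 8.73 to 11.2 (median 10.2), a difference of 1.09 (SE 0.0518, edgeR adjusted p 3.51e-16). For all 3 genes the ranges over the 6 libraries of each knockdown did not meet. The weakly expressed MT1F, at 3.25 to 5.89 CPM against 1.45 to 2.56, and MT1X, at 1.8 to 2.32 CPM against 0.745 to 1.32, differed by 1.35 (SE 0.126) and 1.00 (SE 0.171).

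All 5 metallothioneins held their calls under DESeq2, ERCC and library-size scaling, the replicate block, the sums over time points and each fit without 1 library. Against siControl their median was 0.44 in siIGF2BP2, -0.74 in siIGF2BP3 and -0.09 in siIGF2BP1. MT2A and MT1X were also low in siIGF2BP1, at -0.49 and -0.51.

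The promoters of MT2A and MT1X are shown because they were found, while none was found for MT1G, MT1E and MT1F. The core of the metal response element recurs in both. The windows are again the 250 bases before the RefSeq start (GRCh38.p14, plus strand), chr16:56608334-56608583 for MT2A and chr16:56682220-56682469 for MT1X, and capitals mark each TGCACNC or TGCGCNC on either strand.
MT2A: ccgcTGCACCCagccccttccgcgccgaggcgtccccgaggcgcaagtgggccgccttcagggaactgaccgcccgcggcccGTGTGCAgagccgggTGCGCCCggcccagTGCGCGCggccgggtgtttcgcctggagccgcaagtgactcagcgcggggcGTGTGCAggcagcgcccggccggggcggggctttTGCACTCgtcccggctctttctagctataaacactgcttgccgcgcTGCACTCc
MT1X: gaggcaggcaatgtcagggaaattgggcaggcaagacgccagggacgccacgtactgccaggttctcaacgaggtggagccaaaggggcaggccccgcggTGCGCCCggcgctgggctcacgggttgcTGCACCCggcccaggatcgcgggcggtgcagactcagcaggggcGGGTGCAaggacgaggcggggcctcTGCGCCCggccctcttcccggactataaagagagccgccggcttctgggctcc
MT2A holds 7 matches and MT1X holds 4, none overlapping another. At least 1 match was found in 24.8% of the 35116 windows and at least 4 in 0.37%. Occupancy by MTF1 was not measured.

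Further genes among the 15 highest in siIGF2BP2 had varied roles. THBS1, the adhesive glycoprotein thrombospondin-1, was at 181 to 236 CPM (median 184) against 89.9 to 154 (median 101), a difference of 0.83 (SE 0.0385, edgeR adjusted p 2.16e-16). AKAP12, a scaffold for protein kinases A and C, was at 123 to 140 CPM (median 134) against 71.4 to 74.9 (median 73.9), a difference of 0.85 (SE 0.0263, edgeR adjusted p 1.18e-20). Both were higher in every siIGF2BP2 library than in any siIGF2BP3 library. SLC16A6, a monocarboxylate transporter, differed by 1.12 (SE 0.0988). F3, the tissue factor that starts coagulation, differed by 0.85 (SE 0.0776), the cytokine IL18 by 0.84 (SE 0.0955) and TNFRSF12A, the receptor of TWEAK, by 0.80 (SE 0.0651). AQP3, a water and glycerol channel, and FOSL1, an AP-1 subunit, were at 0.77 (SE 0.1) and 0.76 (SE 0.0789).

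For this group siControl lay mostly between the knockdowns or nearer to siIGF2BP2. In 12 of the 15 genes siIGF2BP3 was farther from siControl than siIGF2BP2 was, and in 12 of the 15 siControl lay between the knockdowns. AKAP12 was at -0.04 from siControl in siIGF2BP2 and -0.89 in siIGF2BP3, and AQP3 at -0.14 and -0.90. ANKRD1 was at 0.80 and -0.86, with siControl almost midway, and at -0.44 in siIGF2BP1. The siIGF2BP1 libraries were nearer to siIGF2BP2 than to siIGF2BP3 in 10 of the 15. They were so in 920 of the 1872 genes called higher and in 5870 of all 12893 tested. Over the 1872 genes higher in siIGF2BP2, siIGF2BP2 was the farther one in 46.3%, and siControl lay between the knockdowns in 56.9%, against 31.8% of all genes tested. That share is no like baseline, since the 1872 genes were picked for a gap between the knockdowns.

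**Figure D3:**
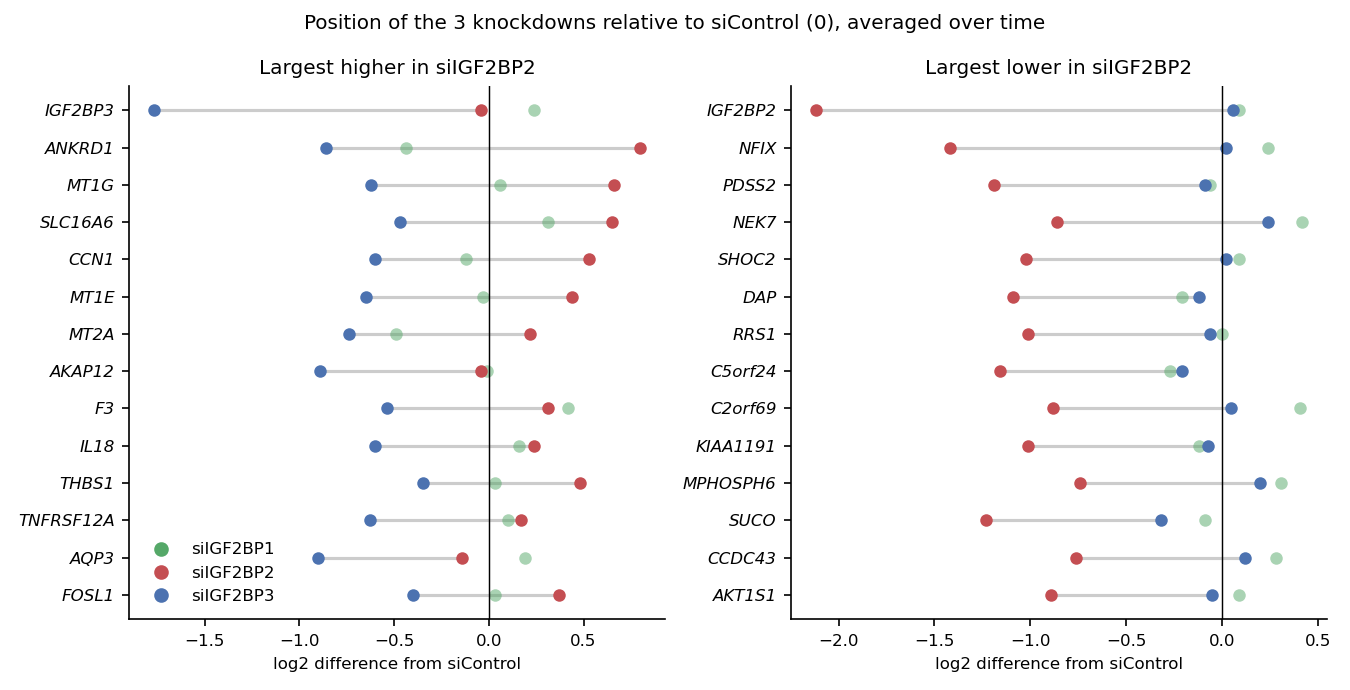
Log2 difference from siControl, averaged over time, for 14 of the 15 genes with the largest positive (left) and 14 of the 15 with the largest negative (right) differences between siIGF2BP2 (red) and siIGF2BP3 (blue), with siIGF2BP1 (green, pale) beside them. NFIX sits at -1.42 in siIGF2BP2 and 0.02 in siIGF2BP3, whereas AKAP12 sits at -0.04 and -0.89.

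Gene lists are described by their counts beside those of all genes, of which 14.5% were called higher and 14.7% lower (5.8% and 13.6% under ERCC scaling, 6.72% and 7.05% in the sums over time points). These shares are not matched for expression. Called genes had a median of 38.5 CPM (higher) and 45.2 CPM (lower), against 19.8 CPM over all genes tested. With the stricter count filter, 3628 of 9496 genes were called, so a list share slightly above 29.2% is not read as an excess. Of 37 extracellular matrix and adhesion genes tested, 22 were called higher, 4 lower and 11 not called, 70.3% called in all against 29.2% of all genes, with a median of 0.16 against 0.00. Beside CCN1 and THBS1 the list held ITGA2, the alpha chain of a collagen-binding integrin, at 56.1 to 64 CPM against 37.4 to 44.7 (log2 0.49, SE 0.0335, edgeR adjusted p 1.3e-12). The matrix genes FN1 and HSPG2 were at 0.18 and 0.29, both called. Against these, ITGA3 at -0.42 and SPARC at -0.33 were called lower. ERCC scaling left 14 higher and 4 lower, and the sums over time points 17 and 2. PDGFRB, the one fibroblast marker above 1 CPM, was also higher in siIGF2BP2 (0.45), and its part in this list was not tested. Among 24 epithelial and mesenchymal genes, 10 were higher and 1 lower (45.8% called against 29.2%), with KRT19, a keratin of biliary and progenitor cells, at 127 to 161 CPM against 90 to 105 (0.54, SE 0.027, edgeR adjusted p 9.87e-16). That list kept 5 higher and 1 lower under ERCC scaling, and 6 and 1 in the sums. The tight junction genes CLDN1 at 0.45 and CLDN2 at -0.70 went opposite ways, but CLDN2 did not meet the rule for named genes (called, with a mean of at least 5 CPM).

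Of 31 G2/M and mitosis genes, 19 were called lower in siIGF2BP2 than in siIGF2BP3, 0 higher and 12 not called (median -0.10), where 14.7% of all genes were called lower. NUSAP1, a spindle-associated protein, was at 12.5 to 14 CPM (median 13.4) in siIGF2BP2 and 16.4 to 20.5 CPM (median 17.2) in siIGF2BP3, without overlap (-0.41, SE 0.0531, edgeR adjusted p 4.19e-07). TPX2, which activates Aurora A on the spindle, was at 321 to 339 CPM against 374 to 414 (-0.25, SE 0.0212, edgeR adjusted p 9.67e-11). UBE2C, an enzyme of the anaphase-promoting complex, differed by -0.29 (SE 0.0384) and CDC25C, the phosphatase that activates CDK1, by -0.30 (SE 0.0523). CDK1 itself was at -0.22, CCNA2 at -0.20 and CCNB1 at -0.14, all called. MKI67, the common proliferation marker, was at -0.07. Of 34 G1/S and replication genes 16 were lower, 3 higher and 15 not called (median -0.07), among them MCM4 at -0.27 (SE 0.0217), CDC6 at -0.26 (SE 0.0276) and PCNA at -0.13.

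The G2/M calls were 18 lower and 0 higher under ERCC scaling and 12 and 0 in the sums. The G1/S calls were 13 lower and 0 higher under ERCC scaling and 6 and 0 in the sums. Against siControl the median of the G2/M list was 0.11 in siIGF2BP2, 0.23 in siIGF2BP3 and 0.08 in siIGF2BP1.

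Of 26 tested p53 targets, 16 were called higher in siIGF2BP2, 1 lower and 9 not called, with a median of 0.15 (14.5% of all genes were called higher and 14.7% lower). BTG2, an antiproliferative gene, was at 30.5 and 27.2 CPM against 20.5 and 21.8 at 0 h (log2 over all times 0.68, SE 0.0908, edgeR adjusted p 7.44e-07). CDKN1A, the CDK inhibitor p21, was at 50.6 and 47.2 CPM against 35.5 and 34.2 at 0 h, without overlap at any time (0.41, SE 0.0517, edgeR adjusted p 3.45e-07). PMAIP1, GADD45A and SESN1 were at 0.46, 0.27 and 0.25, while MDM2, which encodes the ligase that degrades p53, was at 0.07. PMAIP1 did not meet the rule for named genes (called, with a mean of at least 5 CPM). ZMAT3 was the one called lower, at -0.18. From siControl, CDKN1A was at -0.18 in siIGF2BP2, -0.59 in siIGF2BP3 and -0.57 in siIGF2BP1. The list median differed from it, at 0.14, -0.04 and 0.12 in the same order. The list had 8 higher and 1 lower under ERCC scaling, 9 and 1 in the sums, and between 10 and 15 higher when 1 library was left out.

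Of 25 cholesterol synthesis genes tested, 14 were called higher in siIGF2BP2, 1 lower and 10 not called, with a median of 0.13 (14.5% of all genes were called higher and 14.7% lower). DHCR7, which makes cholesterol from its last precursor, was at 74.2 to 126 CPM (median 101) against 56.4 to 94.4 (median 75.8), a difference of 0.42 (SE 0.0262, edgeR adjusted p 1.94e-13). MVD was at 0.33 (SE 0.0314). IDI1, the isopentenyl diphosphate isomerase, went the other way, at 48.4 to 71.4 CPM (median 61) in siIGF2BP2 and 87.8 to 114 CPM (median 101) in siIGF2BP3 (-0.72, SE 0.0378, edgeR adjusted p 3.43e-15). Against siControl the list median was -0.01 in siIGF2BP2 and -0.15 in siIGF2BP3. ERCC scaling left 8 higher and 1 lower, and the sums 11 and 1.

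In glycolysis 10 of 21 genes were higher and 3 lower (61.9% called against 29.2% of all genes), with 5 and 2 under ERCC scaling and 6 and 1 in the sums. HK2, the hexokinase of proliferating cells and a published IGF2BP client, was the lowest, at 58.3 to 99.6 CPM (median 72.2) against 89.6 to 147 (median 112), with no overlap within a time point (-0.62, SE 0.03, edgeR adjusted p 4.86e-16). It was at -0.66 from siControl in siIGF2BP2 and -0.04 in siIGF2BP3. Among the higher ones PFKFB3, which makes the activator of phosphofructokinase, was at 0.48 (SE 0.0943, edgeR adjusted p 0.000212). PFKP, the platelet isoform of phosphofructokinase, was at 1.06 but did not meet the rule for named genes (called, with a mean of at least 5 CPM). Insulin and IGF signalling had 9 genes higher and 2 lower of 29 (37.9% called against 29.2%), and kept 3 and 1 under ERCC scaling and 2 and 1 in the sums, with IGFBP1, a secreted IGF-binding protein, at 43.8 and 50.2 CPM at 0 h against 35.5 and 24.2 (0.56, SE 0.0721, edgeR adjusted p 3.96e-07). IGF2 itself, whose mRNA named the protein family, was at -0.02 and was not called.

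Of 26 antioxidant genes under NRF2, 12 were lower and 4 higher in siIGF2BP2 (61.5% called against 29.2% of all genes), with 12 and 2 under ERCC scaling and 8 and 2 in the sums. The bile and drug exporter ABCC3, at 47.3 to 81.7 CPM against 61.6 to 110 (-0.42, SE 0.0258, edgeR adjusted p 1.07e-13), and the aldo-keto reductase AKR1B10 (-0.40, SE 0.0334) led the lower ones. NQO1 was at -0.30, HMOX1 at -0.32 and NFE2L2, the gene of NRF2, at -0.20. SQSTM1, an autophagy receptor, was at 245 to 294 CPM against 213 to 223 (0.34, SE 0.0252, edgeR adjusted p 1.15e-11). Of 25 interferon response genes 7 were lower and 0 higher, a share of 28% called that is near the 29.2% of all genes, and the sums kept 3, among them USP18 (-0.38, SE 0.0495) and PSMB8 (-0.26, SE 0.053).

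Of 40 secreted plasma protein genes, 13 were lower and 7 higher (median -0.03, 50% called against 29.2% of all genes), with 12 and 2 under ERCC scaling and 7 and 2 in the sums. The lower ones included HP, which encodes haptoglobin (-0.32, SE 0.0267), FGG, a fibrinogen chain (-0.28, SE 0.0228), and RBP4, the retinol carrier (-0.22, SE 0.0183). The complement gene C5 was higher, at 63.3 to 87.6 CPM against 40.6 to 61.7 (0.53, SE 0.0341, edgeR adjusted p 4.09e-13). ALB, which encodes albumin, was at -0.14 (SE 0.0125, edgeR adjusted p 3.34e-10) and lost its call in the sums (edgeR adjusted p 0.236). The bile acid receptor NR1H4 was at 33.5 to 70.3 CPM against 42 to 98.9, without overlap within a time point (-0.45, SE 0.0338, edgeR adjusted p 1.36e-11). Of 22 hepatocyte transcription factors 6 were lower and 2 higher (36.4% called against 29.2%), FOXA1 among the latter at 0.28 (SE 0.0433). The factors kept 5 lower and 1 higher under ERCC scaling, and 4 and 1 in the sums.

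**Figure D4:**
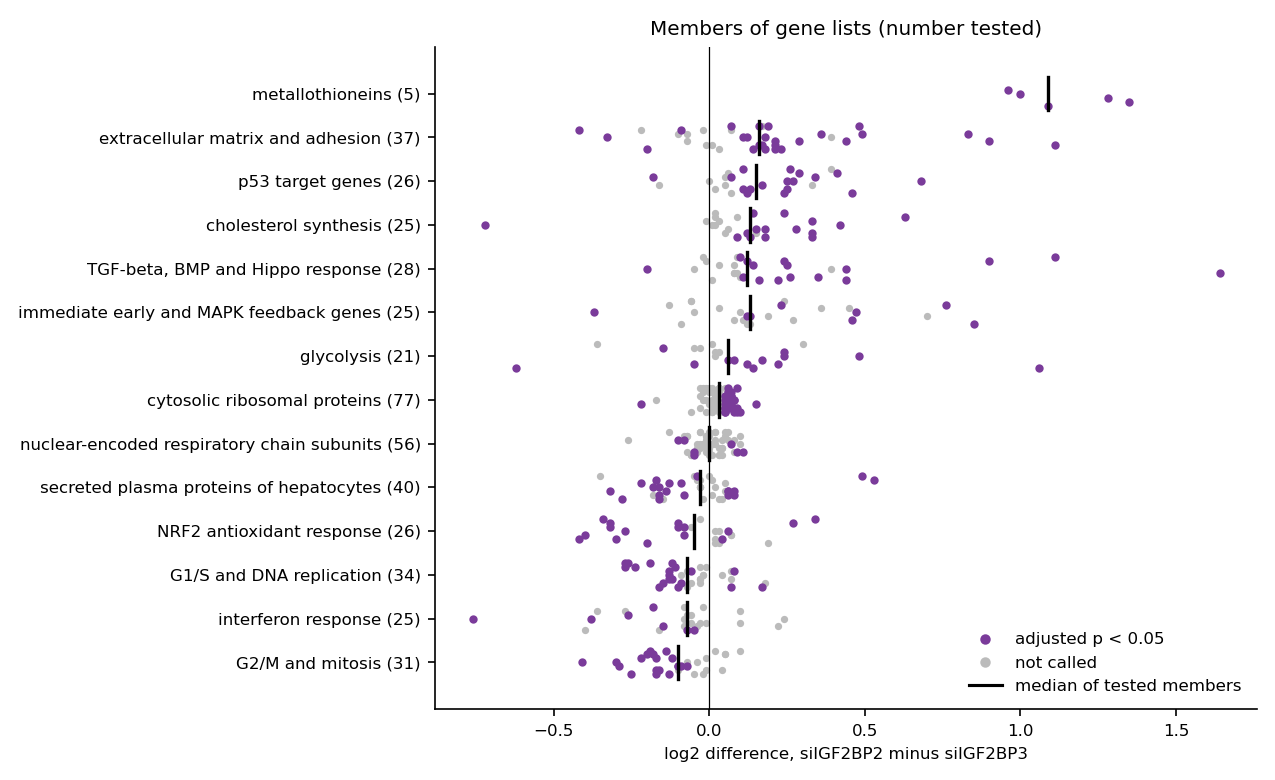
Log2 difference, siIGF2BP2 minus siIGF2BP3, of each tested member of 14 gene lists (number tested in brackets), purple where the edgeR adjusted p is under 0.05, with the list median as a bar. Medians run from -0.10 for G2/M and mitosis to 1.09 for the metallothioneins, and IDI1 at -0.72 stands alone among the cholesterol genes.

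Genes tied to the function of the IGF2BP proteins were called in both directions, mostly with small differences. Of 30 published IGF2BP client mRNAs, 9 were higher and 9 lower, with a median of 0.02, and the 60% called compare with 29.2% of all genes. ERCC scaling left 2 higher and 5 lower, and the sums 3 and 2. Apart from HK2 and PDGFRB (0.45, SE 0.0723), called members lay between -0.16 (MALAT1) and 0.24 (FSCN1, which encodes the actin bundler fascin). MYC was at 0.11 and was not called. Of 22 writers, readers and erasers of m7G and m6A, 3 were higher and 5 lower (36.4% called against 29.2% of all genes). ERCC scaling left 0 higher and 4 lower. In the sums edgeR called 0 of them, with 5 at an unadjusted p under 0.05, while DESeq2 on the 12 libraries called 3 higher and 5 lower. METTL1, the methyltransferase of internal m7G, was at -0.04 and not called, and its partner WDR4 was at 0.16 (SE 0.0383, edgeR adjusted p 0.00221), a call that was lost under ERCC scaling (edgeR adjusted p 0.142) and in the sums (edgeR adjusted p 0.0669). Among 23 cofactors and decay partners, 4 were higher and 8 lower (52.2% called against 29.2%), from XRN1, the cytoplasmic exonuclease, at -0.18 (SE 0.0435) to HMGA1 at 0.12 (SE 0.0191). EXOSC2, an exosome subunit, was at -0.10 and called. ERCC scaling left 0 higher and 3 lower, and the sums 0 and 1, and HMGA1 lost its call in both (edgeR adjusted p 0.202 and 0.0711).

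Calls among cytosolic ribosomal protein genes depended on the setting. Of 77, 26 were called higher, 1 lower and 50 not called with TMM (35.1% called against 29.2% of all genes), with a median of 0.03. With ERCC scaling 0 were higher and 1 lower, and in the sums 1 was higher and 1 lower. The exception in each setting was RPL6, at 618 to 1078 CPM against 707 to 1257, which was lower at each time point without overlap (-0.22, SE 0.0168, edgeR adjusted p 2.27e-11). It was at -0.22 from siControl in siIGF2BP2 and 0.00 in siIGF2BP3.

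The time course asks whether the difference between knockdowns itself changed after transcription was stopped. Taken separately, 0 h gave 1129 called genes (8.76%, 3.91% higher and 4.85% lower), 3 h gave 1641 (12.7%, 5.97% and 6.76%) and 6 h gave 1852 (14.4%, 7.59% and 6.77%). The counts ranged from 543 to 1337, 850 to 1940 and 1085 to 2115 when 1 library was left out. They moved by over 1.5 times without any 1 of the 4 libraries at 0 h (543 to 688), without siIGF2BP2 3 h replicate 1 or 2 (850 and 903) and without siIGF2BP2 6 h replicate 1 or 2 (1085 and 1115). ERCC scaling gave 400, 950 and 755, so the order of 3 and 6 h depends on the scale. In all, 708 genes were called at all 3 times with the same sign each time. The test of the interaction called 22 genes (0.171%, edgeR adjusted p under 0.05), against 773 at an unadjusted p under 0.05. Differences of similar size at each time were seen in several of the largest genes. NFIX was at -1.37, -1.55 and -1.44 at 0, 3 and 6 h, MT2A at 0.92, 0.97 and 0.99, and AKAP12 at 0.88, 0.88 and 0.79.

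Several of the called genes had a larger difference at 3 or 6 h than at 0 h. ANKRD1 was at 1.46, 1.49 and 2.67 (interaction, edgeR adjusted p 0.0315), with both siIGF2BP3 libraries below 1 CPM at 6 h. THBS1 was at 0.64, 1.00 and 0.87 (edgeR adjusted p 0.0257). DDIT4, a stress-induced inhibitor of mTORC1, was at similar levels at 0 h, with 29.9 and 32.2 CPM against 31.1 and 31.7. At 3 h it was at 1.71 and 1.79 CPM in siIGF2BP2 against 0.741 and 0.801, and at 6 h at 1.05 and 0.795 against 0.492 and 0.485, with log2 differences of -0.03, 1.20 and 0.90 (edgeR adjusted p 0.0115). STARD7, which carries phosphatidylcholine to mitochondria, was at -0.53, -0.66 and -0.86 (edgeR adjusted p 0.0115). NEAT1, the nuclear RNA that builds paraspeckles, was at 127 and 130 CPM at 0 h against 119 and 120, and at 477 and 461 CPM at 6 h against 580 and 585, so that its difference went from 0.09 to -0.23 and -0.30 (edgeR adjusted p 0.000755).

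These values are shares of the gene reads left at each time, so a stable transcript gains CPM while others decay. Gene reads per ERCC read went from 758 to 576 in siIGF2BP2 between 0 and 6 h, and from 757 to 593 in siIGF2BP3. The part of this gain in share in the rise of NEAT1 was not tested. The count of interaction genes was unstable: 34 with DESeq2, 6 with ERCC scaling, and 2 to 39 when 1 library was left out. A linear slope with ERCC scaling called 0 genes by edgeR, with 189 at an unadjusted p under 0.05.

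**Figure D5:**
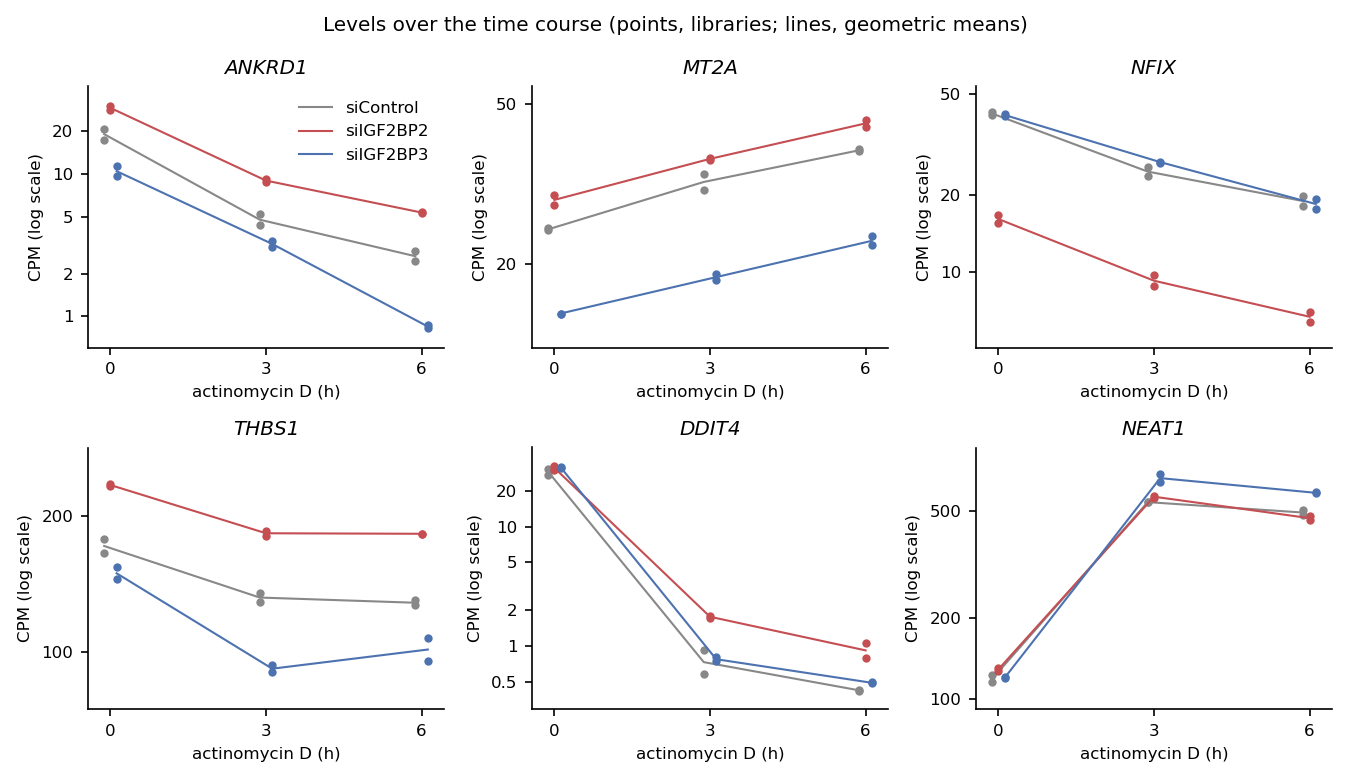
CPM (log scale) of 6 genes against hours of actinomycin D in siControl (grey), siIGF2BP2 (red) and siIGF2BP3 (blue), with points for libraries and lines through geometric means. The log2 difference of MT2A goes from 0.92 to 0.99 and that of NFIX from -1.37 to -1.44 between 0 and 6 h, that of ANKRD1 from 1.46 to 2.67 and that of THBS1 from 0.64 to 0.87.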

How the data were processed

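RNA of HepG2 cells was sequenced as polyadenylated, stranded, single-end libraries with ERCC spike-in. Per the labels and methods, the authors trimmed reads with Trimmomatic 0.39, aligned them to hg38 with HISAT2 2.1.0 and counted reads per GENCODE gene with HTSeq. The deposited values are these raw counts. The 5 HTSeq summary rows (13.551% to 16.645% of each total) and 45 Y copies of pseudoautosomal genes were left out.

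The 12893 genes that reached 1 CPM in 2 or more of the 12 libraries were tested with edgeR 4.0.16 (quasi-likelihood, TMM, knockdown plus time point, 8 residual degrees of freedom), and p-values were Benjamini-Hochberg adjusted over all of them. Single time points and the interaction came from 6 group means. A log2 difference is siIGF2BP2 minus siIGF2BP3. The SE was derived from the F statistic. Differences from siControl came from a fit of all 24 libraries. The tests were run on simulated counts first. Alternatives were DESeq2 1.42.0, ERCC and library-size scaling, other filters, replicate blocks, sums over time points and leaving out each library.

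Named genes were IGF2BP1 to IGF2BP3, the 15 largest called differences in each direction (mean CPM of at least 5, same direction and no overlap at each time), up to 4 called members per list, and the 5 smallest interaction p-values. Further list members are given by their difference alone. Some genes that met these rules are counted but not reported here by name. The comparison and the lists were chosen with earlier results of these data known. Promoters are from RefSeq (GRCh38.p14), where 4 of the 9 genes looked up were found. Gene positions are from GENCODE v44, a later release than that counted.

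Replicate numbers did not pair the knockdowns: deviations of same-numbered libraries at the same time correlated with r of 0.006, 0.007 and 0.038. Within siIGF2BP3, same-numbered libraries of different times correlated with r of 0.245, 0.184 and 0.216, and within siIGF2BP2 with 0.029, -0.033 and 0.009.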

Additional observations from a re-analysis of the deposited data

Results flagged for a closer look

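Among the named genes, the gap between siIGF2BP2 and siIGF2BP3 changed with time in 8, by the test of interaction. The edgeR adjusted p of the interaction was 0.000755 for IGF2BP3 and for NEAT1, 0.00368 for MT-ATP8, 0.0115 for STARD7 and for DDIT4, 0.0257 for THBS1, and 0.0315 for IGF2BP2 and for ANKRD1. The log2 difference of IGF2BP3 was 1.45, 1.80 and 1.99 at 0, 3 and 6 h, with its level in siIGF2BP3 near 34 CPM throughout while it gained share in siIGF2BP2, and that of IGF2BP2 was -2.01, -2.35 and -2.18. MT-ATP8 is uncertain. It was at 310 and 307 CPM in siIGF2BP2 against 863 and 927 in siIGF2BP3 at 0 h, and its 2 siIGF2BP3 replicates at 3 h, at 270 and 622 CPM, lay far apart. Its reading frame overlaps that of its neighbour, and the part of this in its counts was not tested. Other genes called by the interaction test included EFNA1, MT-CO1, BMP4, WAC, HNRNPF, ABCA1, BUB3, B4GALT5, SMN1, SERP1 and LTBR, named here after their values were seen. Of these, SMN1 has a near-identical copy and is uncertain. EFNA1, a membrane-bound ephrin ligand, was at 0.15, 0.81 and 0.71, and BMP4 at -0.13, 0.18 and 0.48.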

How the results depend on the processing

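IGF2BP2 and IGF2BP3 kept their direction and their call in every alternative fit, with log2 differences of -2.21 to -2.15 and 1.70 to 1.79 when 1 library was left out. The count of called genes averaged over time was 3762 and stayed within 1.5 times in all alternatives except ERCC scaling (2496) and the sums over time points (1776), and ranged from 3256 to 3608 without 1 library. A replicate block gave 3918 calls and a block within each time point 3697, and the block changed the call of none of the named genes. ERCC scaling gave 400, 950 and 755 calls at 0, 3 and 6 h, and without 1 library these counts ranged from 543 to 1337, 850 to 1940 and 1085 to 2115 (an arm with 1 library is then assumed to vary like the others). The counts moved by over 1.5 times without any of the 4 libraries at 0 h (543 to 688), without either siIGF2BP2 library at 3 h (850 and 903) and without either at 6 h (1085 and 1115). Splits of higher to lower also moved: ERCC scaling gave 154 to 796 at 3 h and 273 to 482 at 6 h, no count filter 670 to 451 at 0 h and 712 to 988 at 6 h, and the fit of all 24 libraries 852 to 1140 at 6 h. The interaction count of 22 was 34 with DESeq2, 6 with ERCC scaling, 65 without a count filter and 0 for the ERCC slope, and 2 to 39 without 1 library. It was 2 to 8 without any 1 siIGF2BP2 library or either siIGF2BP3 library at 0 h, and 39 without siIGF2BP3 3 h replicate 1. The causes were not tested. Of 124 named genes beside the 2 targets, 17 lost their call under ERCC scaling and 26 in the sums, a check added after the data were seen, where DDIT4 also changed sign, to -0.05. Depth limits most the genes near 1 CPM, such as DDIT4 at 3 and 6 h.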

Other observations

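Several groups that the comparison of lists left out were also measured. Immediate early and MAPK feedback genes had 7 of 25 higher and 1 lower in siIGF2BP2 (median 0.13, 32% called against 29.2% of all genes). Under ERCC scaling and in the sums these were 5 and 1. JUN was at 5.27 to 69.9 CPM against 3.94 to 52.8 (0.47, SE 0.0603, edgeR adjusted p 3.71e-07) and KLF6 at 0.46 (SE 0.0438), while DUSP6, a phosphatase that restrains ERK, was at -0.37 (SE 0.121, edgeR adjusted p 0.0207). The microRNA pathway had 5 of 13 higher and 1 lower (46.2% called, 2 and 1 under ERCC scaling and in the sums), and the GW182 genes went different ways, with TNRC6B at 0.31 (SE 0.046), TNRC6A at 0.19 (SE 0.0271) and TNRC6C at -0.19 (SE 0.0561). Fatty acid and triglyceride genes had 11 of 23 higher and 5 lower (69.6% called), a balance that turned to 4 and 5 under ERCC scaling and was 5 and 3 in the sums, with the acyltransferases DGAT1 at -0.32 (SE 0.0307) and GPAM at -0.30 (SE 0.0214), and PLIN2, a lipid droplet coat protein, at 0.28 (SE 0.0312). Stress response genes (integrated stress response and unfolded protein response) had 9 of 30 higher and 6 lower (50% called, 8 and 4 under ERCC scaling, 7 and 3 in the sums), with XBP1 at -0.27 (SE 0.0282) and SLC7A11, the cystine transporter, at 0.27 (SE 0.0381). Nuclear-encoded respiratory chain subunits had 3 of 56 higher and 4 lower (12.5% called) and mitochondrially encoded mRNAs 4 of 13 higher and 1 lower (38.5% called, 1 and 1 under ERCC scaling and in the sums), with medians of 0.00. Among 27 let-7 targets tested, 7 were higher and 8 lower (55.6% called, 3 and 8 under ERCC scaling, 3 and 3 in the sums), IGF2BP1 to IGF2BP3 included.

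Called transcripts differed in composition by direction, given here as a description. Protein-coding genes lower in siIGF2BP2 had a median GC content of 45% and a median 3′ untranslated region of 1574 bases (1798 genes). Those higher had 51% and 1398 bases (1793 genes), and all tested had 48.2% and 1323 bases (11273 genes). For differences of at least 0.5 the medians were 47.5% and 1673 bases among 116 genes lower and 51.1% and 1074 bases among 133 genes higher. The part of GC content or length in the calls was not tested.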
